A study of Rattus norvegicus with 4 samples.

Results

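Phenylephrine was given to neonatal rat ventricular myocytes that had first been transfected with an siRNA against Chaer, and the libraries with and without phenylephrine were compared. Of 26406 listed features, the comparison covered the 12092 whose mean over these 2 libraries was 1 RPKM or more. RPKM is a read count divided by the length of the gene model and by the read total of the library. The feature just inside the threshold had a mean of 1.00070 RPKM, from 45 reads without and 44 reads with phenylephrine, and the feature just outside it had a mean of 0.99986 RPKM, from 141 and 136 reads. The myocytes came from the ventricles of 2-day-old Sprague Dawley rats and were kept in primary culture in ITS medium. They were transfected for 6 h with siRNA against Chaer (siChaer) or with negative control siRNA (siNeg). Phenylephrine at 50 µM was present in 1 library of each siRNA (siChaer PE and siNeg PE), and total RNA was collected after 48 h. Each of these 4 groups was a single library, so no p-value or spread between replicate cultures is given. The intervals below are 95% intervals for the counting of reads alone. No molecular identifiers are recorded, so copies of a molecule may have been counted more than once.

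Phenylephrine activates α1-adrenergic receptors, which couple to Gq proteins, phospholipase C and protein kinase C. In cultured myocytes this raises cell size and protein synthesis and turns on a set of genes of the fetal heart, and it serves as a culture model of the hypertrophic heart. Chaer, a long noncoding RNA of the heart, is known to bind the Polycomb repressive complex and to take part in the hypertrophic gene programme. The comparison asks how the transcriptome responds to phenylephrine when Chaer has been targeted.

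The libraries with Chaer siRNA held 38768299 reads in listed features without and 39155363 with phenylephrine, and those with control siRNA held 35404497 and 33944988. No feature was named Chaer, so its level was not analysed here. Apart from H19, the files give Ensembl identifiers that the gene table used here does not pair with symbols. Pathway lists and markers of myocytes or of other cell types could therefore not be read, and the labelled cell type was not checked. Besides H19, only the 2 highest and the 2 lowest ratios are identified, and the other features are described by counts and levels. Those at the extremes were chosen on the Chaer siRNA ratio, and the intervals of their differences from control siRNA do not allow for that choice. In bulk RNA, a change in the share of a cell type and a change in RNA per cell cannot be told apart.

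With Chaer siRNA, phenylephrine went with a level at least 2-fold higher for 135 features (1.12% of those compared) and with one at least 2-fold lower for 106 (0.877%). The ratio is that of (RPKM + 1) in each library, which understates the change of weakly expressed features. Of the features past 2-fold, the higher ones were 56.0%. That share was 72.5% under TMM scaling, which sets the libraries level on the features between the extremes of level and ratio, with 182 higher and 69 lower, and 71.0% under median-ratio scaling, which sets them level on the median feature. With 0.1 RPKM added in place of 1, 192 were higher and 207 lower, so the larger direction turned, and with 5 RPKM added 70 were higher and 26 lower. Most features moved little: 89.8% differed by under 1.5-fold, 384 were 1.5 to 2-fold higher and 612 were 1.5 to 2-fold lower. A difference of 4-fold or more was seen for 15 higher features and for 2 lower ones. Under TMM or median-ratio scaling these were 17 and 1, with 0.1 RPKM added 24 and 7, and with 5 RPKM added 6 and 1.

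**Figure D1:**
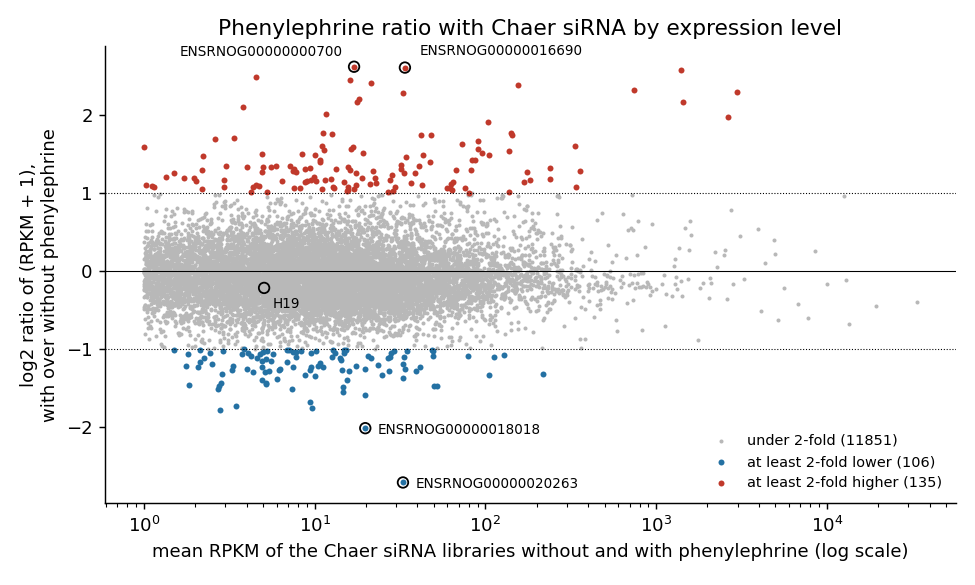
Log2 ratio of (RPKM + 1) with over without phenylephrine in the Chaer siRNA libraries, plotted against mean RPKM on a log axis for the 12092 features (1 point each). Dotted lines mark 2-fold; 135 points lie at or above the upper line and 106 at or below the lower one, and the circled features are those named in the text.

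ENSRNOG00000000700 had the highest ratio. In the Chaer siRNA libraries it went from 4.04 RPKM (3.63 to 4.49) without to 30.0 RPKM (28.9 to 31.2) with phenylephrine, from 354 to 2655 reads. With control siRNA it went from 5.68 RPKM (5.17 to 6.22) to 50.0 RPKM (48.4 to 51.6). Both libraries with phenylephrine lay far above both without, and both Chaer siRNA levels lay below the control siRNA level of the same treatment. The RPKM ratio was 7.42-fold (6.64 to 8.31) with Chaer siRNA and 8.81-fold (7.99 to 9.73) with control siRNA. On the log2 scale the difference of the ratios was -0.31, and taken on read counts -0.25 (-0.46 to -0.04). With its gene model of 2167 bp, it was expressed well above the threshold in every library.

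ENSRNOG00000016690 had the second highest ratio and differed more between the siRNAs. With Chaer siRNA its level was 8.80 RPKM (7.99 to 9.68) without and 58.8 RPKM (56.7 to 61.0) with phenylephrine, a 6.68-fold ratio (6.03 to 7.41). With control siRNA it stood at 11.8 RPKM (10.8 to 12.8) and 40.6 RPKM (38.8 to 42.6), a 3.45-fold ratio (3.12 to 3.81). Chaer siRNA thus went with the lower level without phenylephrine and the higher level with it. The log2 ratio with Chaer siRNA was 0.91 above that with control siRNA, and the same difference taken on read counts was 0.95 (0.75 to 1.16). Because the feature was chosen for its high Chaer siRNA ratio, this difference is a description only. Its order among the highest ratios depended on the pseudocount, since it and ENSRNOG00000000700 ranked 5th and 4th with 0.1 RPKM added and 5th and 9th with 5 RPKM added.

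ENSRNOG00000020263 had the lowest ratio, and it remained the lowest with each pseudocount, filter and scaling run. With Chaer siRNA its level was 57.9 RPKM (56.6 to 59.1) without and 7.97 RPKM (7.52 to 8.45) with phenylephrine, which is 7.26 times lower (6.82 to 7.72). With control siRNA the levels were 58.6 RPKM (57.3 to 60.0) and 24.4 RPKM (23.5 to 25.3), which is 2.40 times lower (2.30 to 2.51). The levels without phenylephrine lay within each other's counting error, and the level with Chaer siRNA and phenylephrine stood below the other 3 libraries. On the log2 scale the ratio was -2.71 with Chaer siRNA and -1.23 with control siRNA, a difference of -1.48. Taken on read counts the difference was -1.59 (-1.70 to -1.49). That interval leaves out variation between cultures, which was not measured. It also does not allow for the choice of the feature on its low Chaer siRNA ratio, so the difference is a description only.

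ENSRNOG00000018018 had the second lowest ratio and was nearly as much lower under either siRNA. With Chaer siRNA its level was 32.4 RPKM (31.2 to 33.5) without and 7.24 RPKM (6.71 to 7.80) with phenylephrine, a level 4.47 times lower (4.11 to 4.86). With control siRNA these were 43.3 RPKM (42.0 to 44.7) and 10.9 RPKM (10.2 to 11.7), a level 3.96 times lower (3.68 to 4.26). The difference of the log2 ratios was -0.12, and taken on read counts it was -0.17 (-0.33 to -0.02). With Chaer siRNA its log2 ratio of -2.02 lay just past 4-fold, and it was -1.91 under TMM scaling, -1.92 under median-ratio scaling and -1.61 with 5 RPKM added. It was the 6th lowest feature when 0.1 RPKM was added in place of 1.

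H19, an imprinted long noncoding RNA of the fetal heart and the precursor of a microRNA, was not among the features past 2-fold. Its reads in the Chaer siRNA libraries were 518 without and 437 with phenylephrine, or 5.52 RPKM (5.05 to 6.01) and 4.60 RPKM (4.18 to 5.06). The log2 ratio was -0.22, against a median of -0.10 over all features, and 34.8% of the features had a lower ratio. H19 therefore lay inside the bulk of the distribution. Under TMM scaling, where the median was 0.00, its log2 ratio was -0.12. With control siRNA the levels were 30.6 RPKM (29.5 to 31.8) without and 20.1 RPKM (19.1 to 21.1) with phenylephrine, and the log2 ratio was -0.58. The log2 ratios thus differed by 0.37, and by 0.35 (0.14 to 0.55) when taken on read counts.

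**Figure D2:**
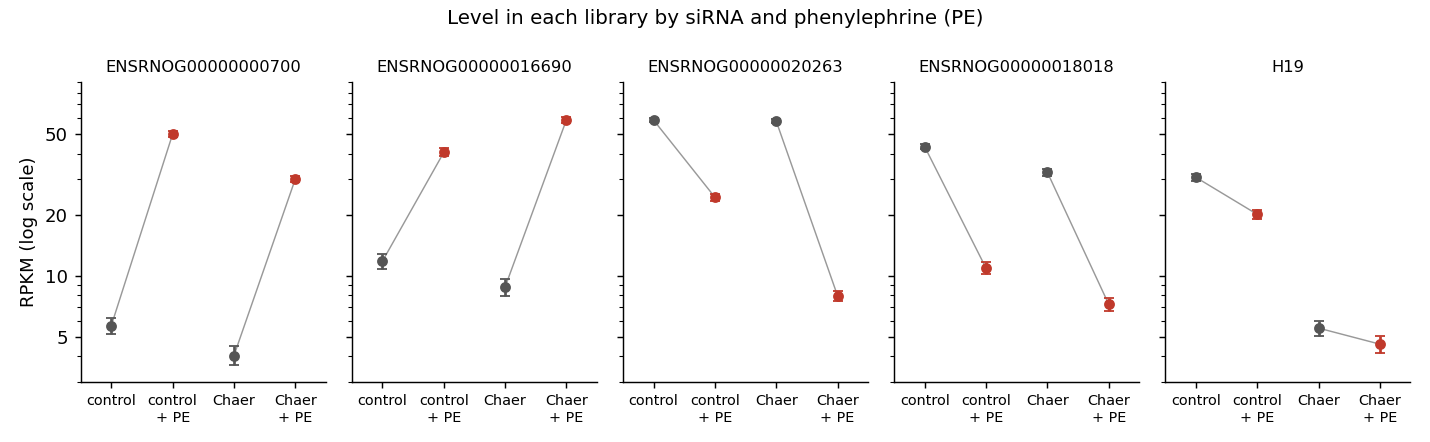
RPKM on a log axis in each of the 4 libraries for the 2 highest ratios, the 2 lowest ratios and H19; grey points are without and red points with phenylephrine (PE), lines join libraries of the same siRNA, and bars are 95% Poisson counting intervals. ENSRNOG00000020263 started at 57.9 and 58.6 RPKM under Chaer and control siRNA and ended at 7.97 and 24.4 RPKM.

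The features at least 2-fold higher spanned weak and abundant transcripts. Their mean RPKM over the Chaer siRNA libraries ran from 1.00 to 2958 with a median of 16.8, beside a median of 11.4 for all features compared. The features at least 2-fold lower ran from 1.51 to 219 RPKM with a median of 9.40, so they reached less far into the abundant transcripts. Of the higher features, 14 were under 1 RPKM before phenylephrine. Of the lower features, 9 were under 1 RPKM with phenylephrine. Because the mean over both libraries had to be at least 1 RPKM, none of these could also be under 1 RPKM in the other library.

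The median level of the 135 higher features was 8.80 RPKM without and 24.9 RPKM with phenylephrine under Chaer siRNA. In the control siRNA libraries, which did not enter their choice, it was 9.42 and 23.7 RPKM. The 106 lower features had medians of 13.4 and 4.89 RPKM with Chaer siRNA, and of 15.1 and 7.74 RPKM with control siRNA. The values with Chaer siRNA describe the choice of these features and support nothing by themselves.

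Counting error was small beside these ratios for most features past 2-fold. The RPKM ratio of the higher features had a median of 2.79-fold, and the counting interval lay wholly above 2-fold for 125 of 135. The lower features were a median of 2.61 times lower, and the interval lay wholly past 2-fold for 81 of 106. Both sets were chosen past 2-fold on these same reads with 1 RPKM added, and the RPKM ratio without it lies farther out. The smallest RPKM ratios were therefore 2.02-fold higher and 2.06 times lower by choice. Those counts describe the precision of the reads and give no support to the choice. The lower features rested on fewer reads, with a median of 1034 over both libraries against 3429 for the higher ones. Under 100 reads stood behind 4 higher and 3 lower features. The thinnest, a gene model of 61 bp, had 0 reads without and 5 reads with phenylephrine, and no fold is given for it.

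As a share of all reads in listed features, the higher features took 1.29% without and 4.19% with phenylephrine under Chaer siRNA, and 1.15% and 3.84% under control siRNA. The lower features took 0.472% and 0.185% under Chaer siRNA, and 0.480% and 0.232% under control siRNA. Much of the redistribution of reads lay in features that did not reach 2-fold. Over all listed features, 12.0% of the reads moved from features whose share went down to features whose share went up, beside 12.5% with control siRNA. A few abundant features carried the gain, since 41 features made up 50% or more of it with Chaer siRNA and 43 with control siRNA.

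The loss was spread more widely with Chaer siRNA, where the smallest number of features that made up 50% of it was 185, against 11 with control siRNA. The libraries also differed before phenylephrine in how far reads were concentrated in a few features. In the control siRNA libraries, the 20 features with the most reads in each held 24.9% without and 21.7% with phenylephrine. In both Chaer siRNA libraries the same share was 20.6%. The feature with the most reads lost the largest share under both siRNAs, from 6.17% to 4.68% of the reads with Chaer siRNA and from 7.14% to 4.98% with control siRNA. The largest gain was also in the same feature under both, from 1.33% to 2.61% with Chaer siRNA and from 1.28% to 2.68% with control siRNA. On the log2 scale the loss was -0.40 with Chaer siRNA and -0.51 with control siRNA. The gain was 0.97 with Chaer siRNA, just short of 2-fold, and 1.07 with control siRNA, just past it. Under TMM scaling the gain was 1.08 and 1.17, so that it passed 2-fold under both siRNAs. How the wider loss with Chaer siRNA arose was not tested.

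Over the same 12092 features, 135 features (1.12%) passed 2-fold upwards with phenylephrine under control siRNA, and 65 (0.538%) passed it downwards. Under TMM scaling the share of higher features among these was 79.5%, against 67.5% as scaled by the authors. With 5 RPKM added in place of 1, 73 were higher and 19 lower with control siRNA. These ratios come from separate libraries, so they do not share a control with the Chaer siRNA ratios. Of the 135 features higher with Chaer siRNA, 90 (66.7% of either list) were at least 2-fold higher with control siRNA as well, 22 were 1.5 to 2-fold higher and 21 were higher by less. Of the 106 features lower with Chaer siRNA, 37 were also at least 2-fold lower with control siRNA, which is 34.9% of that list and 56.9% of the control siRNA list. With 5 RPKM added, 6 were lower under both, or 23.1% and 31.6% of the lists, and 48 were higher under both. With 1 RPKM added, a further 53 of the 106 were 1.5 to 2-fold lower with control siRNA and 14 were lower by less. Of the lower features that did not reach 2-fold with control siRNA, most were thus at least 1.5-fold lower. The control siRNA lists hold only features that passed the level threshold in the Chaer siRNA libraries. With no filter on RPKM, the features lower under both were 33.3% of the Chaer siRNA list and 46.8% of the control siRNA list. With a mean of at least 5 RPKM they were 30.7% and 67.6%. For the higher features the shares were 66.4% and 63.2% with no filter, and 67.6% and 69.5% with that mean. Whether the matching shares of the higher and the lower features differ was not tested.

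The direction matched for nearly all features past 2-fold. With control siRNA, 133 of the 135 higher features also had a positive log2 ratio, where 39.6% of all features did, and 104 of the 106 lower features had a negative one, where 60.4% did. The medians of the control siRNA log2 ratio were 1.21 and -0.91. Because the features were chosen on the Chaer siRNA ratio, the sizes of the 2 ratios are not compared over them. All 15 features at least 4-fold higher with Chaer siRNA were at least 2-fold higher with control siRNA, 10 of them at least 4-fold. With 0.1 RPKM added, 20 of the 24 at least 4-fold higher were at least 2-fold higher with control siRNA.

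The 4 exceptions in direction rested on few reads or small control siRNA ratios. A higher feature with log2 ratios of 1.21 with Chaer and -0.82 with control siRNA had 2 and 11 reads with Chaer siRNA and 7 and 2 with control siRNA. The other was the feature of 61 bp described above. A lower feature with log2 ratios of -1.22 and 0.37 had 160 and 51 reads with Chaer siRNA, and 122 and 159 with control siRNA. The last had log2 ratios of -1.05 and 0.20, with 111 and 49 reads against 60 and 67. In both directions, 0 features past 2-fold with Chaer siRNA were past 2-fold the other way with control siRNA. Over all features compared, 0.538% were at least 2-fold lower and 1.12% at least 2-fold higher with control siRNA. A count of 0 is near those shares and says little about these features.

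**Figure D3:**
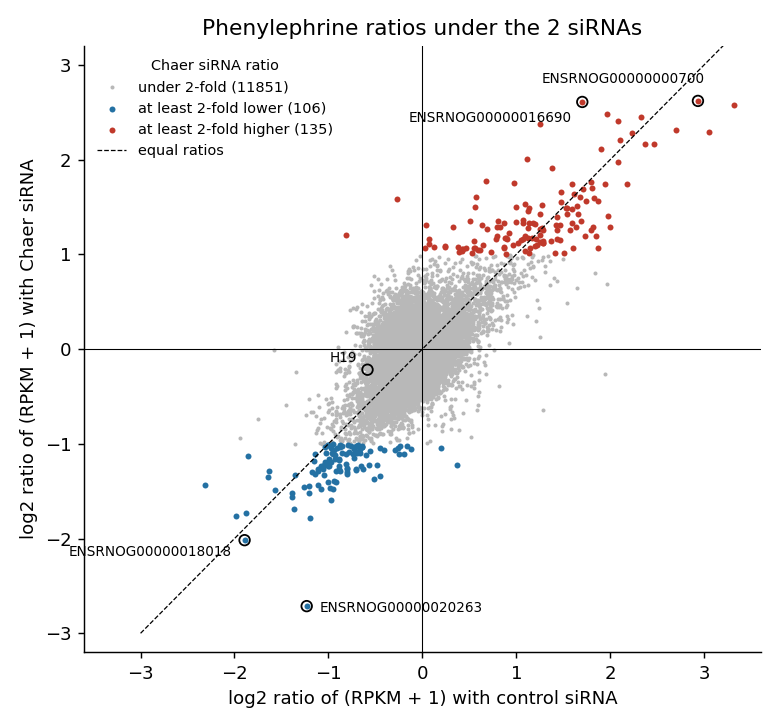
Log2 phenylephrine ratio of (RPKM + 1) with Chaer siRNA (vertical) against that with control siRNA (horizontal) for 12092 features, coloured by the 2-fold rule on the Chaer siRNA ratio; the dashed line marks equal ratios. Nearly all coloured points lie in the quadrants of matching sign (133 of 135 and 104 of 106), and ENSRNOG00000020263 lies below the line.

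The phenylephrine log2 ratio with Chaer siRNA was at least 1 above that with control siRNA for 37 features (0.306%) and at least 1 below it for 27 (0.223%). Larger ratios with Chaer siRNA were 57.8% of these, and 68.5% under median-ratio scaling. The counts themselves depended on the pseudocount, with 126 above and 61 below when 0.1 RPKM was added, and 6 and 3 when 5 RPKM was added. Of these 64 features, 41 were past 2-fold under neither siRNA. Of the 37, 9 were at least 2-fold higher with Chaer siRNA, 4 were at least 2-fold lower with control siRNA and 24 were past 2-fold under neither. Of the 27, 3 were at least 2-fold lower with Chaer siRNA, 7 were at least 2-fold higher with control siRNA and 17 were past 2-fold under neither. The counting interval of the difference lay off 0 for 31 of the 37 and for 22 of the 27. Both sets were chosen for a difference of at least 1 on these same reads, so such intervals follow largely from the choice. They describe the precision of the reads and give no support to the choice. The share of all features with such an interval is not given. Variation between cultures is in none of those intervals and was not measured.

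Across all features, the log2 ratio with Chaer siRNA had a median of -0.10, quartiles of -0.30 and 0.13, and an SD of 0.38. With control siRNA the median was -0.07, the quartiles -0.24 and 0.11, and the SD 0.34. A positive ratio was seen for 37.9% of the features with Chaer siRNA and for 39.6% with control siRNA. TMM scaling brought the medians to 0.00 and 0.01, so the place of the centre depended on the scaling.

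Expression level went with the ratio in different ways under the siRNAs. The features were divided into 5 equal parts (quintiles). Those of level used the mean RPKM over the Chaer siRNA libraries, also for the control siRNA ratio. In the quintile with the highest mean RPKM, from 34.4 RPKM upwards, the median log2 ratio was -0.08 with Chaer siRNA (quartiles -0.27 and 0.13) and 0.05 with control siRNA (-0.12 and 0.22). In the quintile with the lowest mean RPKM, up to 3.63 RPKM, it was -0.08 with Chaer siRNA and -0.12 with control siRNA. With Chaer siRNA the medians of the 5 quintiles stayed between -0.14 and -0.08, and with control siRNA they lay between -0.12 and 0.05. The quartiles of the siRNAs overlapped in every quintile.

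Features past 2-fold were not spread evenly over level. The highest quintile held 44 of the 135 higher features and 13 of the 106 lower ones, and the lowest quintile held 17 and 19. The added 1 RPKM holds down the ratios of weak features. With 0.1 RPKM in its place the lowest quintile held 56 higher and 87 lower features, while the highest held 45 and 15. The counts among weak transcripts thus depended on the pseudocount. Among abundant transcripts either pseudocount is small beside the level, so their like counts do not check the surplus of higher over lower features. Counts for this quintile under the other scalings are not given.

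Gene length went with the ratio in opposite ways. With Chaer siRNA the median log2 ratio was -0.12 in the quintile with the shortest gene models, up to 1083 bp, and -0.04 in the quintile with the longest, from 3411 bp. With control siRNA it was -0.02 in the shortest and -0.12 in the longest quintile. Features with a positive ratio made up 34.3% of the shortest and 45.1% of the longest quintile with Chaer siRNA, against 47.4% and 31.8% with control siRNA. The shortest quintile held 16 higher and 31 lower features past 2-fold with Chaer siRNA, and the longest held 23 and 12. Within a quintile, the quartiles of the ratio were several times wider apart than these medians. Each ratio rests on 1 library per side, and what moves with length was not tested.

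**Figure D4:**
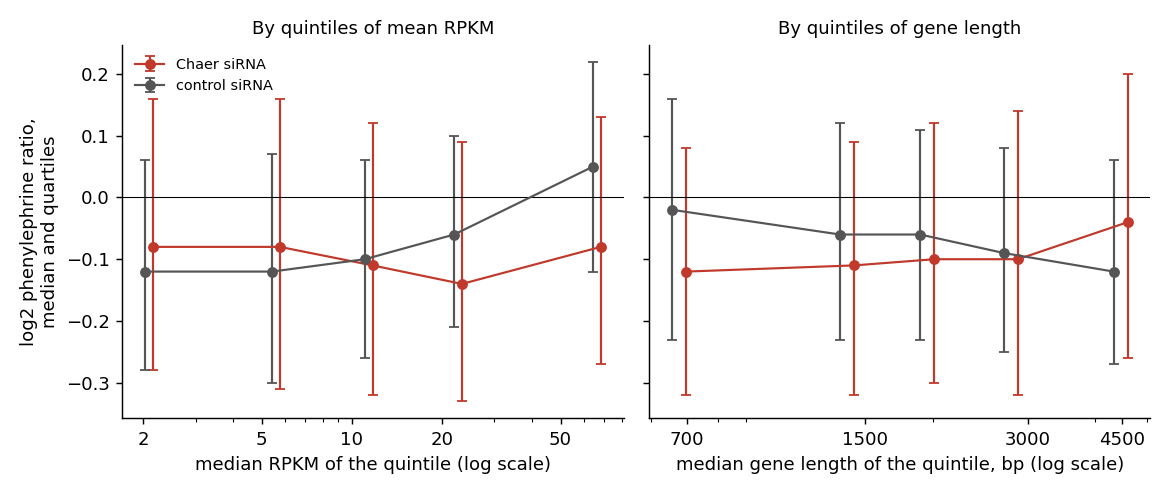
Median log2 phenylephrine ratio of (RPKM + 1), with bars from the lower to the upper quartile, in quintiles of mean RPKM (left) and of gene length (right), with log horizontal axes and points set slightly apart for clarity. Mean RPKM is that over the Chaer siRNA libraries for both ratios. With Chaer siRNA (red) the median goes from -0.12 in the shortest to -0.04 in the longest quintile, and with control siRNA (grey) from -0.02 to -0.12.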

How the data were processed

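RNA was measured in 4 libraries, 1 for each combination of siRNA and phenylephrine. The submitters' processing notes name TopHat2 and the genome build rn5, and per the labels' protocols the libraries were stranded TruSeq libraries. Not given in the sources used here are the counting tool, annotation, strand setting and filters, so reads of overlapping genes may be shared between features. Each file the authors deposited holds, per the file headers, a read count (whole numbers) and an RPKM for every feature. Read totals (35314303 to 40835172) and gene lengths were recovered from count and RPKM, and the lengths came out whole to 6.38e-08 bp for values of over 1000 reads. Between 3.88% and 4.29% of those reads lay outside the listed features.

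Ratios were log2 of (RPKM + 1) over (RPKM + 1), with a size rule of 2-fold and no p-value. Intervals at 95% were exact binomial for ratios, exact Poisson for levels, and normal on log counts with 0.5 reads added for differences of ratios. Python 3.11.15, scipy 1.17.1 and edgeR 4.0.16 (TMM factors only) were used, and the ratio, the rule and the interval were tested on simulated data. The plan named H19 and, since no table pairs identifiers with symbols, the 2 highest and 2 lowest ratios. Of 26405 identifiers, 0 were paired with a symbol in the RefSeq table (assembly GRCr8), so the 33 gene lists written for this comparison were not applied. The comparison, lists and measures were chosen with earlier results of these data known. The labels do not say whether separate cultures were used.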

Additional observations from a re-analysis of the deposited data

Results flagged for a closer look

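The relation of the phenylephrine ratio to gene length had opposite signs under the siRNAs. The median log2 ratio of the longest quintile minus that of the shortest quintile was 0.08 with Chaer siRNA and -0.10 with control siRNA, and this difference was not tested. It was looked at again within quintiles of mean RPKM, a check chosen after seeing the data. From the lowest to the highest quintile of level, the values were 0.04, 0.12, 0.04, 0.04 and 0.11 with Chaer siRNA and -0.04, -0.11, -0.06, -0.09 and -0.02 with control siRNA, so the signs were opposite in all 5. Set against each feature's mean over the 4 libraries, the longest minus the shortest quintile was -0.06 without and 0.03 with phenylephrine under Chaer siRNA, and 0.06 without and -0.03 with phenylephrine under control siRNA. The libraries without phenylephrine thus stood farther from the mean than those with it.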

How the results depend on the processing

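No paired analysis was possible because the labels give no replicate numbers and 1 library stands for each group. No library could be left out without losing a group, and the gene lists could not be applied under any scaling or pseudocount. With 0.1 RPKM, lower features were 207 with Chaer siRNA and 150 with control siRNA, and the difference of the ratios passed for 126 higher and 61 lower. With 5 RPKM the counts were 70 higher and 26 lower with Chaer siRNA, 73 and 19 with control siRNA, and 6 and 3 for the difference. With a mean of at least 5 RPKM, 34 features were lower with control siRNA, and the difference passed for 17 higher and 11 lower. With TMM scaling, 69 were lower with Chaer siRNA and 43 with control siRNA. With a 1.5-fold rule the counts were 519 and 718, 422 and 462, and 541 and 192, so the larger direction turned for both phenylephrine comparisons. The median log2 ratio with Chaer and control siRNA was -0.11 and -0.08 with 0.1 RPKM, -0.06 and -0.05 with 5 RPKM, -0.11 and -0.05 with a mean of at least 5 RPKM, -0.04 and -0.03 with no filter, -0.01 and -0.01 with median-ratio scaling, and 0.00 and 0.01 with TMM scaling, where its sign turned. The longest minus the shortest quintile of gene length was 0.04 and -0.07 with no filter and -0.06 for control siRNA with 5 RPKM. Within quintiles of level it ranged from 0.04 to 0.12 with Chaer siRNA and from -0.11 to -0.02 with control siRNA, with -0.04 and -0.06 between. Of 40 alternative values for the 5 named features under both siRNAs, 0 changed sign and 17 moved by more than their counting error. Depth gave a median half-width of the log2 counting interval of 0.13 over all features, 0.11 for the higher and 0.21 for the lower ones.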

Other observations

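Among the 20 features with the most reads in the Chaer siRNA libraries, 9 were higher and 11 lower with phenylephrine, and 1 was past 2-fold. Over all 12092 features compared, 37.9% had a positive ratio. The share past 2-fold among all of them was 1.12% upwards and 0.877% downwards. The 20 features held 20.4% of the reads without and 20.5% with phenylephrine. Their log2 ratios ran from -0.69 to 1.97 with a median of -0.11, and 16 of the 20 had the same sign with control siRNA. The share of all features with matching sign is not given, so the 16 cannot be set against it.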
